A study of Macaca mulatta with 2 samples.

Results

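Voltage-gated sodium, potassium and calcium channel genes, together with the remaining potassium channel genes and the auxiliary subunits that carry the same gene prefixes, were described across the layers of the rhesus macaque posterior eye, in areas of injected eyes that lay outside the injection. Members were all features whose symbol began with KCN, with SCN followed by a digit, or with CACNA, CACNB or CACNG, which gave 129 of the 26533 features of the reference. The rule used symbols only and no measured value, so it could not reach the 9855 features that had no symbol. The data were 2 Visium spatial transcriptomes, an assay that captures polyadenylated RNA from a tissue section on a grid of barcoded spots and counts unique molecular identifiers (UMIs, 1 per captured transcript). Each section came from the uninjected area of the right eye of 1 male animal, from a 4 mm punch through retina, choroid and sclera cut at 10 μm. NHP1 was 5 years old and had received the vector AAV2-CAG-hRPE65 under the retina elsewhere in both eyes. NHP2 was 6 years old and had received both AAV8-GRK1-hRPGR and AAV8-GRK1-mScarlet, each eye with separate blebs of the vectors, where GRK1 is a promoter active in photoreceptors and CAG a ubiquitous one. Both animals thus shared subretinal injection of an adeno-associated virus in the same eye. Per the study's methods, every eye also had a vitrectomy and a subtenon injection of the corticosteroid triamcinolone. Neither section is therefore from an untouched eye, and animal, vectors, library and depth cannot be told apart between the sections.

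Voltage-gated channels open or close with the membrane potential and set how retinal neurons respond, fire and release transmitter. Photoreceptors and bipolar cells signal with graded potentials and release glutamate continuously through L-type calcium channels at ribbon synapses, whereas ganglion cells and some amacrine cells fire sodium action potentials. Inwardly rectifying potassium channels of Müller glia and of the retinal pigment epithelium (RPE) carry away the potassium that neurons release.

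NHP1 had 534 tissue spots with 1484784 UMIs and NHP2 had 470 tissue spots with 805726 UMIs, with medians of 1473.5 and 370.5 UMIs per spot. Channel genes made up 2285 of these UMIs in NHP1, or 15.4 per 10000 UMIs (95% Poisson interval 14.8–16.0), and 1096 in NHP2, or 13.6 per 10000 (12.8–14.4). All levels below are UMIs per 10000 UMIs, all intervals are exact 95% intervals that cover counting error only, and no p-value is given because there was 1 section per animal and spots are not replicates. Off the tissue, the level was close to that on it, at 13.2 per 10000 (12.2–14.2) in NHP1 and 14.0 (11.5–17.0) in NHP2, so that the summed channel level alone does not tell tissue from RNA that had spread. Of the 129 genes, 56 had no UMI in the tissue of either section, 36 had 1 to 9 UMIs and 37 had 10 or more, a share of 28.7% beside 37.7% of all features. Detection was shared by both sections for 53 of the 73 genes with a UMI. No such share over all features is given, so this count is not read as a result about the members. The 10 genes with the most UMIs held 59.3% of the channel UMIs.

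Tissue spots were grouped into regions by clustering without the channel genes, and regions were joined into 4 tissue classes by marker genes fixed for each. A spot can hold several cells, and a lower level in a class can come from fewer cells of a type or from less RNA per cell, which cannot be told apart here. The photoreceptor class (118 spots in NHP1, 38 in NHP2) had 332 and 328 UMIs per 10000 from 25 photoreceptor markers. The inner retina class (201 and 34 spots) had 68.7 and 66.8 from 23 markers of the inner nuclear layer, and 36.1 and 38.5 from 13 ganglion cell markers. The label photoreceptor does not hold alone in NHP2. There the class is 1 mixed region of photoreceptors and RPE, which carried 19 of the 25 photoreceptor markers and 11 RPE and choroid markers. Its 10 leading genes were headed by SLC39A12 and held the RPE genes BEST1 and RGR and the cone opsin gene OPN1LW, so more of the listed RPE markers than of the photoreceptor markers. The 13 RPE markers stood at 184 per 10000 in it, close to the 220 of the RPE and choroid class of NHP2, and at 81.2 in the photoreceptor class of NHP1. Values of the photoreceptor class of NHP2 below are those of this mixed region and are given beside those of NHP1 without a comparison between the animals. Photoreceptor markers were also present at 96.8 and 79.8 per 10000 in the inner retina class, so the classes were mixed in both directions. In NHP1 the inner retina class included a region of 45 spots, led by TCERG1L, with photoreceptor markers at 169 per 10000. Values of the inner retina class of NHP1 below include this region.

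Promoter sequence is shown for CACNA1F, which had the most UMIs of the members whose level was higher in the photoreceptor class in both sections. It is also shown for KCNV2, a photoreceptor potassium channel subunit with the same direction, and for KCNAB2, a potassium channel beta subunit gene with the opposite direction. These are the 250 bases before the RefSeq gene start in Mmul_10, 5′ to 3′ on the gene's strand, with the motif TAATCC, the core bound by the photoreceptor homeodomain factor CRX, in capitals where it was found on either strand.
CACNA1F (chrX:49220919-49221168, minus strand): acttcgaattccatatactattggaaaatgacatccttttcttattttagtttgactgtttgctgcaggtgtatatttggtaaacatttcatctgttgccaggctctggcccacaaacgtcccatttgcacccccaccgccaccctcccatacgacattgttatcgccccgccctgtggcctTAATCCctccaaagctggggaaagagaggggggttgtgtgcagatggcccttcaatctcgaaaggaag
KCNV2 (chr15:81161156-81161405, minus strand): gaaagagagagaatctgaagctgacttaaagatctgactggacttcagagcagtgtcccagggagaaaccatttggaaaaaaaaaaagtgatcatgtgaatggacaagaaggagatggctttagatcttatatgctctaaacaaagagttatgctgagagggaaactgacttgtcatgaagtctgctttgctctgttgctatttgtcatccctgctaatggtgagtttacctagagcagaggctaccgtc
KCNAB2 (chr1:218540178-218540427, minus strand): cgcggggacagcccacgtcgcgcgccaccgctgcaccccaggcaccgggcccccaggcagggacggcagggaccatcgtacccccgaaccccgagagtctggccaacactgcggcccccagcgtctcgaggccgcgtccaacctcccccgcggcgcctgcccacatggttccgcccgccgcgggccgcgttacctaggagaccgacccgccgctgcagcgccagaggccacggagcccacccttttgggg
The CACNA1F window held 1 match, 68 bases before the gene start, whereas the KCNV2 and KCNAB2 windows held none. GC content was 48.4% for CACNA1F, 42.0% for KCNV2 and 75.6% for KCNAB2. Of the 36 members with 10 or more UMIs and a RefSeq gene, 6 windows held the motif (16.7%), beside 1932 of 20787 protein-coding genes (9.29%). For 3 genes the ratio of photoreceptor to inner retina level lay above 1 with its whole interval in both sections, and the motif was present for 1 of them. For 10 genes the ratio and its whole interval lay below 1 in both, and the motif was again present for 1. A match is a description of these letters and not a bound site, and no match says only that these letters are not in the window.

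Summed over all members, the channel level was highest in the inner retina of both sections. It was 17.1 per 10000 (16.2–18.0) in NHP1 and 17.5 (16.3–18.8) in NHP2, values whose intervals overlap. The photoreceptor class had 14.6 (13.5–15.9) in NHP1 and 11.2 (9.70–12.8) in NHP2, a ratio to inner retina of 0.857 (0.777–0.944) and 0.638 (0.545–0.745). The RPE and choroid class had 9.39 (7.92–11.1) in NHP1, while the 10.5 (5.40–18.3) of NHP2 rested on 12 UMIs. Sclera had 13.6 (11.4–16.0) in NHP1 and 6.69 (5.48–8.09) in NHP2. The sclera interval of NHP2 lay below that of the photoreceptor class, whereas in NHP1 the 2 intervals overlapped, and for the RPE and choroid class of NHP2 the interval covered the value of every other class, so that it has no order there.

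**Figure D1:**
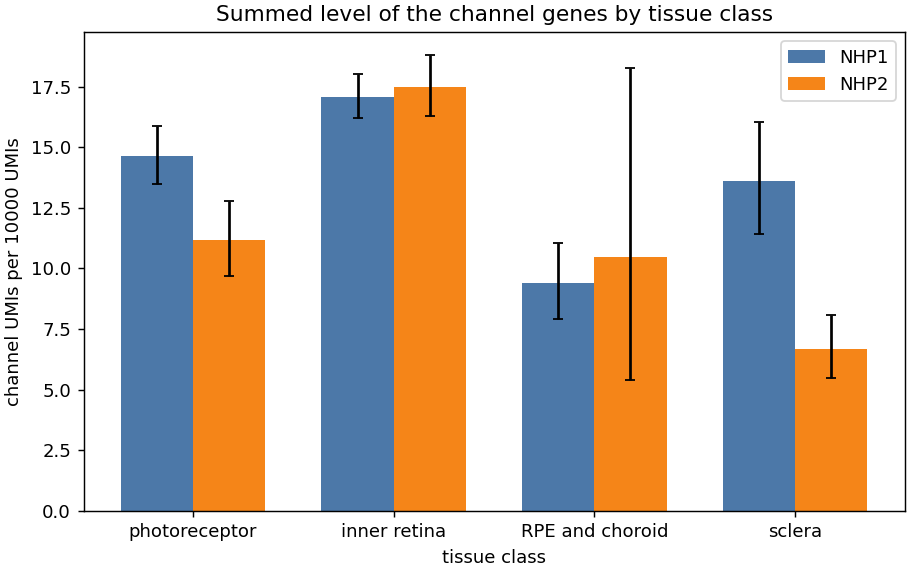
Summed channel UMIs per 10000 UMIs (vertical axis) in each tissue class (horizontal axis) of NHP1 and NHP2; bars are the UMI sums of 1 section each and error bars exact 95% Poisson intervals. Inner retina was at 17.1 and 17.5, whereas sclera was at 13.6 in NHP1 and 6.69 in NHP2.

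Single genes differed in direction beneath the sum. In NHP1, 30 members had 10 or more UMIs in the photoreceptor and inner retina classes together, and 17 of them (56.7%) were over 2-fold lower in the photoreceptor class, beside 16.2% of 8680 genes. In the same comparison 7 members (23.3%) were over 2-fold higher in the photoreceptor class, beside 7.97% of all genes. In NHP2, 13 of 23 members (56.5%) were over 2-fold lower, beside 19.2% of 7327 genes, and 2 (8.70%) were over 2-fold higher, beside 11.4%, a share no larger than that of all genes. The median log2 ratio of photoreceptor to inner retina over these members was −1.45 in NHP1 and −1.89 in NHP2, beside −0.07 and −0.05 over all genes. With genes at 0 in 1 class set to the level that 3 UMIs would give, the medians were −1.14 and −1.27. The members over 2-fold lower then numbered 16 of 30 and 12 of 23, beside 1388 of the 8680 genes and 1336 of the 7327 genes. These counts have no replicate behind them.

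**Figure D2:**
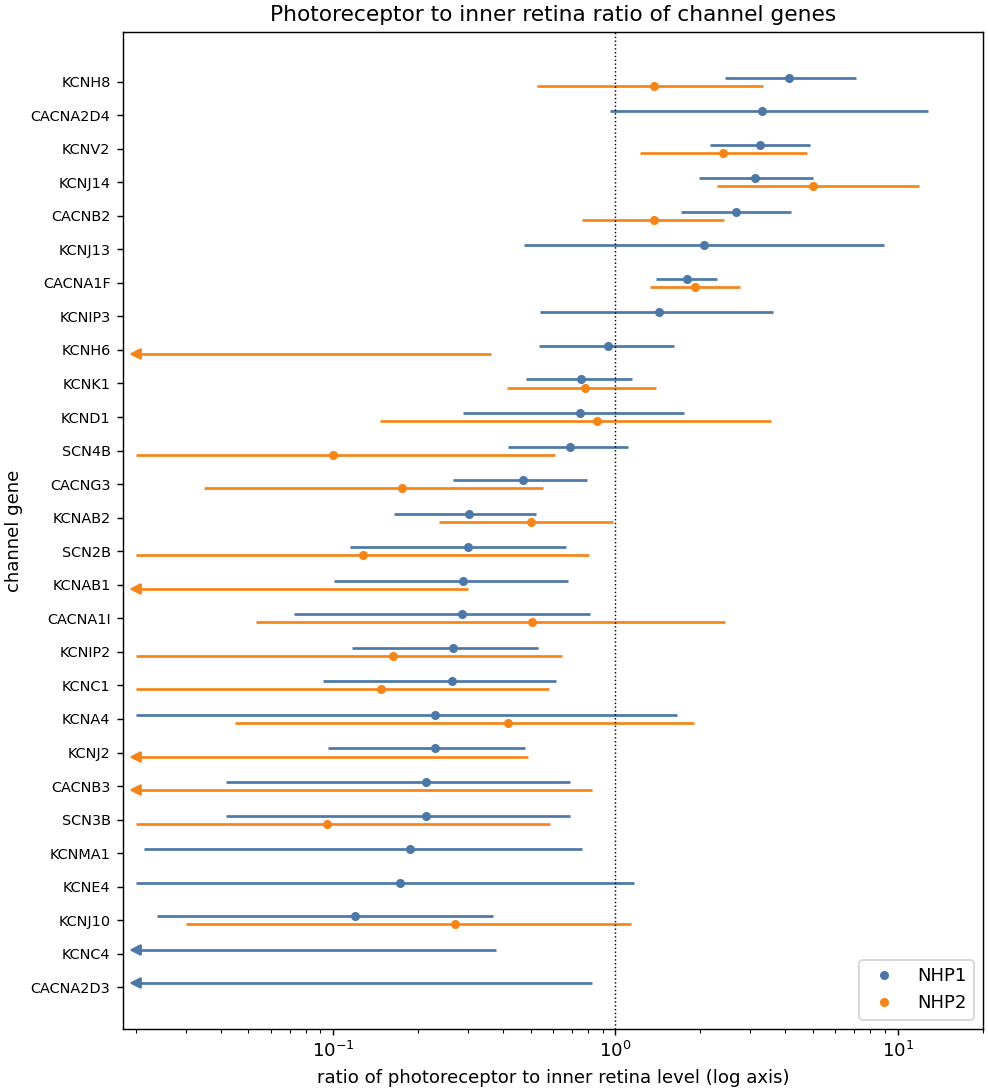
Ratio of the photoreceptor to the inner retina level (log axis) for single channel genes with 10 or more UMIs in these classes of NHP1, and for those of them with 10 or more in NHP2; points are ratios of UMI sums, lines exact 95% intervals clipped at the left axis limit, and arrows mark a ratio of 0. KCNV2, KCNJ14 and CACNA1F lie to the right of 1 in both sections, with their whole intervals, and CACNG3 and KCNAB2 to the left.

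Among the calcium channel pore subunits, CACNA1F had the most UMIs, and also the most of all 129 members. It encodes Cav1.4, the L-type channel of photoreceptor synaptic terminals, and mutations in it cause congenital stationary night blindness. It had 124 UMIs in the photoreceptor class of NHP1, a level of 3.09 per 10000, and 143 in the inner retina, a level of 1.73. In NHP2 it had 57 and 68 UMIs, levels of 3.04 and 1.59. The ratio of photoreceptor to inner retina was 1.79 (1.40–2.29) in NHP1 and 1.92 (1.32–2.77) in NHP2, with the interval above 1 in both. By piece of tissue in NHP1, it was 0.947 (0.524–1.68) in piece 1, 2.11 (1.57–2.83) in piece 2 and 2.34 (0.893–6.08) in piece 3, so the NHP1 value rested on piece 2, which held most of the UMIs. The RPE and choroid class of NHP1 held CACNA1F at 1.30 per 10000, where photoreceptor markers stood at 92.3 per 10000. Sclera had 16 UMIs in NHP1 (1.56) and 2 in NHP2 (0.126), with photoreceptor markers at 99.6 and 28.6 per 10000. The part of such spread or neighbouring RNA in these levels was not tested.

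CACNA1I, which encodes the low-voltage-activated T-type channel Cav3.3, went the other way in NHP1, with 29 UMIs in inner retina (0.350) and 4 in the photoreceptor class (0.0998), a ratio of 0.285 (0.0728–0.811). In NHP2 it had 9 and 2 UMIs, and the ratio of 0.508 (0.0534–2.45) included 1. CACNA1G, another T-type gene, had 6 UMIs in NHP1 and 2 in NHP2, every one of them in the inner retina class. CACNA1D, the Cav1.3 gene, had 1 UMI in NHP1 and 2 in NHP2, and CACNA1S, the skeletal muscle channel, had none. Over the 10 pore genes of this family, of which 6 had a UMI, the photoreceptor level was 1.47 times (1.16–1.85) that of inner retina in NHP1 and 1.74 times (1.22–2.46) in NHP2, and most of these UMIs were CACNA1F.

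The auxiliary calcium channel subunits were spread over both layers. CACNB2, whose product traffics the pore subunit to the membrane and is needed at the photoreceptor synapse, had 49 photoreceptor UMIs in NHP1 (1.22 per 10000) and 38 in inner retina (0.459), a ratio of 2.66 (1.71–4.18). In NHP2 it had 21 (1.12) and 35 (0.818), a ratio of 1.37 (0.759–2.42) that included 1. The inner retina level of NHP2 was 1.78 times (1.09–2.90) that of NHP1. CACNB3, another beta subunit gene, had the opposite pattern, with 29 inner retina UMIs against 3 photoreceptor UMIs in NHP1 and 12 against 0 in NHP2.

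CACNA2D4, an alpha2delta subunit gene of photoreceptors that is linked to cone dystrophy, had 8 photoreceptor UMIs (0.200) and 5 inner retina UMIs (0.0604) in NHP1, with a ratio of 3.30 (0.953–12.8), and 1 UMI in all of NHP2. Its relative CACNA2D3 had 11 UMIs in NHP1 and 8 in NHP2, all in the inner retina class, and none in the photoreceptor class of either. CACNG3, which encodes a transmembrane protein that regulates AMPA-type glutamate receptors, had 79 inner retina UMIs (0.954) and 18 photoreceptor UMIs (0.449) in NHP1, and 39 (0.911) and 3 (0.160) in NHP2. Its ratio was 0.471 (0.265–0.793) and 0.176 (0.0348–0.553), with both intervals below 1.

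Voltage-gated potassium channel subunits divided by layer. KCNV2 encodes Kv8.2, a silent subunit that forms heteromeric channels in photoreceptor inner segments and whose loss causes cone dystrophy with supernormal rod responses. It had 66 photoreceptor UMIs (1.65 per 10000) and 42 inner retina UMIs (0.507) in NHP1, and 20 (1.07) and 19 (0.444) in NHP2. The ratio was 3.25 (2.17–4.90) and 2.41 (1.22–4.77). By piece of NHP1 it was 2.07 (0.777–5.83), 3.63 (2.27–5.89) and 4.30 (0.836–27.7), with the interval above 1 in piece 2.

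The Kv3 gene KCNC1, whose channel allows fast repolarisation and repetitive firing, had 47 inner retina UMIs (0.568) and 6 photoreceptor UMIs (0.150) in NHP1, and 31 (0.724) and 2 (0.107) in NHP2, with ratios of 0.264 (0.0921–0.618) and 0.147 (0.0171–0.580). KCNC4 of the same subfamily had 22 inner retina UMIs in NHP1 and 8 in NHP2, and none in the photoreceptor class of either. KCNC2 had 7 inner retina UMIs in NHP1 and 1 in NHP2. KCND1, an A-type channel gene, had ratios of 0.751 (0.289–1.75) and 0.857 (0.146–3.57), both including 1. The low-threshold channel genes KCNA1 and KCNA2 and the M-type gene KCNQ5 had no UMI in either section, which allows levels of up to 0.0202 per 10000 in NHP1 and 0.0372 in NHP2.

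Among the ether-a-go-go (KCNH) genes, KCNH8 had 46 photoreceptor UMIs (1.15 per 10000) and 23 inner retina UMIs (0.278) in NHP1, a ratio of 4.13 (2.45–7.14). In NHP2 it had 9 (0.481) and 15 (0.350), and the ratio of 1.37 (0.529–3.35) included 1. KCNH6 had 21 photoreceptor UMIs (0.524) and 46 inner retina UMIs (0.555) in NHP1, with a ratio of 0.943 (0.534–1.61). In NHP2 it had 25 inner retina UMIs (0.584) and none in the photoreceptor class, where a count of 0 allows up to 0.160 per 10000. Inner nuclear layer markers stood at 25.7 per 10000 in the photoreceptor class of NHP1 and at 14.8 in that of NHP2, and their part in these values was not tested.

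As a group, Kv auxiliary subunits were lower in the photoreceptor class than in inner retina. KCNAB2, a cytoplasmic beta subunit gene, had 102 inner retina UMIs (1.23) and 15 photoreceptor UMIs (0.374) in NHP1, and 50 (1.17) and 11 (0.588) in NHP2, with ratios of 0.304 (0.164–0.525) and 0.503 (0.236–0.979). KCNAB1 had 43 (0.519) and 6 (0.150) in NHP1, and 30 (0.701) and 0 in NHP2. KCNIP2, which encodes a calcium-binding partner of A-type channels, had 70 (0.845) and 9 (0.224) in NHP1 and 28 (0.654) and 2 (0.107) in NHP2. KCNIP3 was less clear, with 13 inner retina UMIs (0.157) and 9 photoreceptor UMIs (0.224) in NHP1, a ratio of 1.43 (0.539–3.62) that included 1, and 4 and 0 UMIs in NHP2. Over the 11 members of this group, 10 of them with a UMI, the photoreceptor level was 0.351 times (0.248–0.486) the inner retina level in NHP1 and 0.276 times (0.146–0.482) in NHP2.

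**Figure D3:**
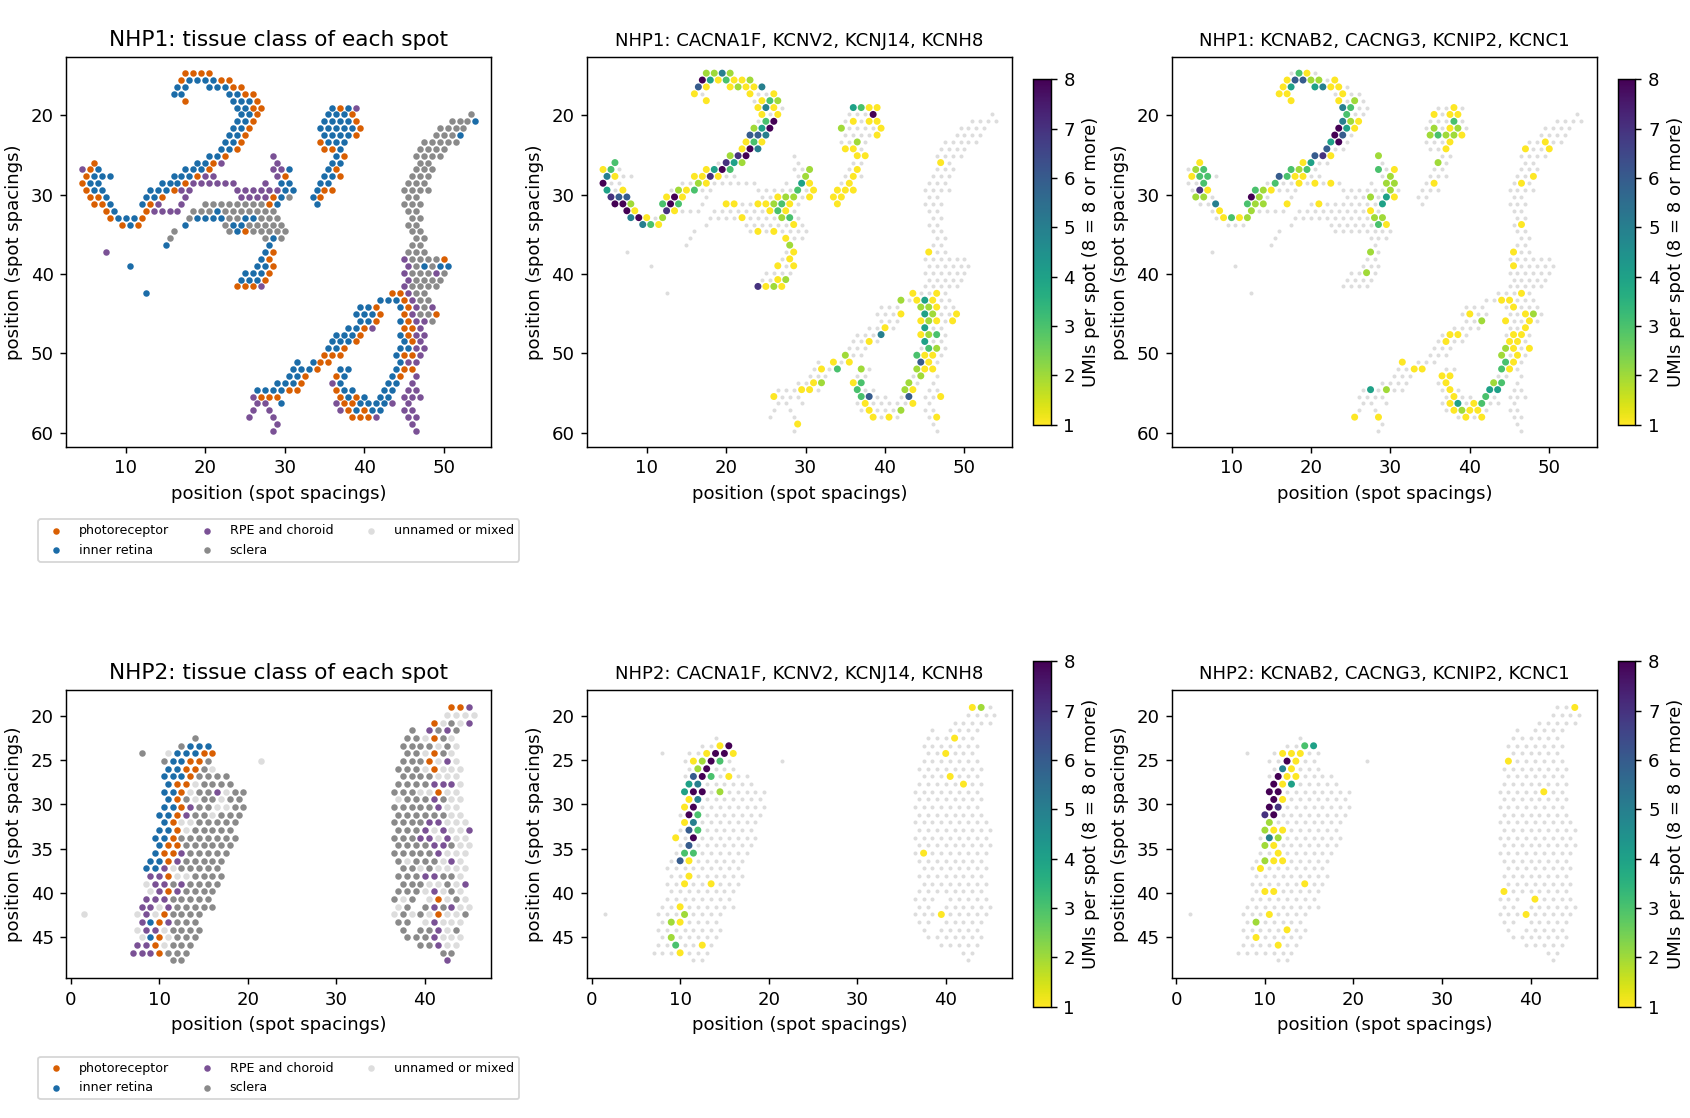
Tissue spots of NHP1 (top) and NHP2 (bottom) at their grid positions in spot spacings, coloured by tissue class (left), by summed UMIs per spot of CACNA1F, KCNV2, KCNJ14 and KCNH8 (middle), and of KCNAB2, CACNG3, KCNIP2 and KCNC1 (right); grey spots in the middle and right panels had 0, and dark colour marks 8 or more. Colours are raw UMIs, and retinal spots were deeper than sclera spots (medians of 2727 and 578 UMIs per spot in NHP1, 4301.5 and 503.5 in NHP2), so the maps show where UMIs were counted and not levels.

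Sodium channel genes were seen almost wholly through their beta subunits. The 9 pore genes had 15 UMIs over both sections, from 3 genes, whereas the 4 beta genes had 622. UMI counts here are of transcript 3′ ends and were not scaled for length or for how well each 3′ end is annotated, so the counts do not rank the transcripts. SCN1A, a pore gene of ganglion cells, had 3 UMIs in NHP1 and 0 in NHP2, SCN2A had 1 in each, and SCN8A, the node of Ranvier channel, and SCN4A, the skeletal muscle channel, had none. SCN9A had 10 UMIs in all, of which 4 in NHP1 and 2 in NHP2 were in the RPE and choroid class.

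Beta subunits modulate sodium channel gating and cell adhesion. SCN2B had 48 inner retina UMIs (0.580) and 7 photoreceptor UMIs (0.175) in NHP1 and 18 (0.421) and 1 (0.0534) in NHP2, with ratios of 0.301 (0.115–0.669) and 0.127 (0.00305–0.804). SCN3B had 29 and 3 in NHP1 and 24 and 1 in NHP2, and 2 of the 3 photoreceptor UMIs of NHP1 lay in piece 1 beside 1 inner retina UMI. SCN4B had 72 inner retina UMIs (0.869) and 24 photoreceptor UMIs (0.599) in NHP1, where its interval (0.415–1.11) included 1, and 23 (0.537) and 1 (0.0534) in NHP2, where its interval (0.00241–0.612) did not. In NHP1 the SCN4B ratio was 1.80 (0.824–4.03) in piece 1 and 0.251 (0.0882–0.581) in piece 2. The summed beta subunit level of the photoreceptor class was 0.456 times (0.340–0.604) that of inner retina in NHP1 and 0.0958 times (0.0379–0.202) in NHP2. The sum was not particular to inner retina. In NHP1 it was 4.20 per 10000 (3.04–5.66) in sclera, beside 3.33 (2.95–3.75) in inner retina. In NHP2 it was 2.33 (1.64–3.22) in sclera, beside 3.90 (3.33–4.54) in inner retina and 0.374 (0.150–0.770) in the photoreceptor class.

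Inward rectifiers divided by layer as well. KCNJ14, which encodes Kir2.4, had 50 photoreceptor UMIs (1.25) and 33 inner retina UMIs (0.398) in NHP1, and 22 (1.18) and 10 (0.234) in NHP2, with ratios of 3.13 (1.98–5.01) and 5.03 (2.29–11.9). In the pieces of NHP1 its ratio was 1.65 (0.654–4.27), 3.83 (2.17–6.92) and 3.87 (0.443–46.3), again with the interval above 1 in piece 2. KCNJ2, which encodes the related Kir2.1, had the opposite pattern, with 72 inner retina UMIs (0.869) and 8 photoreceptor UMIs (0.200) in NHP1, and 19 (0.444) and 0 in NHP2. KCNJ10 encodes Kir4.1, the main potassium channel of Müller glia. It had 52 inner retina UMIs (0.628) and 3 photoreceptor UMIs (0.0748) in NHP1, a ratio of 0.119 (0.0238–0.368), and 17 (0.397) and 2 (0.107) in NHP2, where the ratio of 0.269 (0.0301–1.13) included 1. As a family, the inward rectifiers showed no layer difference beyond counting error, with ratios of 0.839 (0.622–1.12) and 1.31 (0.791–2.12). KCNJ8, a vascular Kir gene, had 1 UMI in each section.

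KCNJ13 encodes Kir7.1, the channel of the apical RPE membrane, and mutations in it cause a retinal dystrophy. In NHP1, 11 of its 22 UMIs were in the RPE and choroid class, a level of 0.717 per 10000 beside 0.125 in the photoreceptor class and 0.0604 in inner retina, and the ratio of RPE and choroid to inner retina was 11.9 (3.80–43.6). In NHP2 the RPE and choroid class was shallow, with 11476 UMIs, and had no KCNJ13 UMI, a count that allows up to 2.61 per 10000, while 3 of the 5 UMIs of the section were in the photoreceptor class with its RPE markers.

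Of the 2-pore-domain potassium genes, which carry background conductance, KCNK1 held most of the UMIs. It had 85 inner retina UMIs (1.03) and 31 photoreceptor UMIs (0.773) in NHP1, and 47 (1.10) and 16 (0.855) in NHP2. The ratios of 0.753 (0.482–1.15) and 0.778 (0.412–1.40) both included 1. KCNK2, a mechanosensitive member, had 1 UMI in all. Of the calcium- and sodium-activated group, KCNMA1, the large-conductance BK channel gene, had 22 inner retina UMIs (0.266) and 2 photoreceptor UMIs (0.0499) in NHP1, and 6 and 1 in NHP2.

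Within the NHP1 retina, 3 deep regions allowed a finer reading. These were a photoreceptor region led by FAM161A, a region led by TCERG1L and named inner retina, and an inner retina region led by ENTPD3 and SST. The TCERG1L-led region held the bipolar cell gene GRIK1 among its leading genes, but its label does not hold alone. It passed the naming thresholds for 5 inner retina and 3 photoreceptor markers. Photoreceptor markers stood at 169 per 10000 in it, beside 331 in the photoreceptor region and 65.3 in the ENTPD3-led region. Inner nuclear layer markers stood at 61.4 in the TCERG1L-led and 72.8 in the ENTPD3-led region, and ganglion cell markers at 12.0 and 46.1. CACNA1F was as high in the TCERG1L-led region (3.28 per 10000) as in the photoreceptor region (2.95), and lower in the ENTPD3-led region (1.02). KCNV2 was at 1.65 in the photoreceptor region, 1.15 in the TCERG1L-led region and 0.245 in the ENTPD3-led region. In the same order CACNB2 was at 1.21, 0.901 and 0.283, and KCNH8 at 1.05, 0.655 and 0.113. KCNJ14 was at 1.24, 0.491 and 0.320.

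Other genes were lower in the photoreceptor class than in inner retina. Of these, KCNJ2 and KCNIP2 were highest in the TCERG1L-led region, at 1.31 and 1.11 per 10000. They were at 0.641 and 0.716 in the ENTPD3-led region and at 0.220 each in the photoreceptor region. KCNAB2, KCNC1 and SCN2B had their highest level in the ENTPD3-led region. KCNAB2 was there at 1.55, beside 0.532 in the TCERG1L-led region, and SCN2B at 0.735, beside 0.205. KCNC1 was at 0.697 in the ENTPD3-led region, 0.123 in the TCERG1L-led region and 0.165 in the photoreceptor region. KCNJ10 was at 0.697, 0.409 and 0.0551. These are values of 1 animal, and NHP2 had 1 inner retina region only. No ratio interval is given between the regions, and several of the lower values rest on few UMIs. The order of values that lie close together can therefore be counting error.

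**Figure D4:**
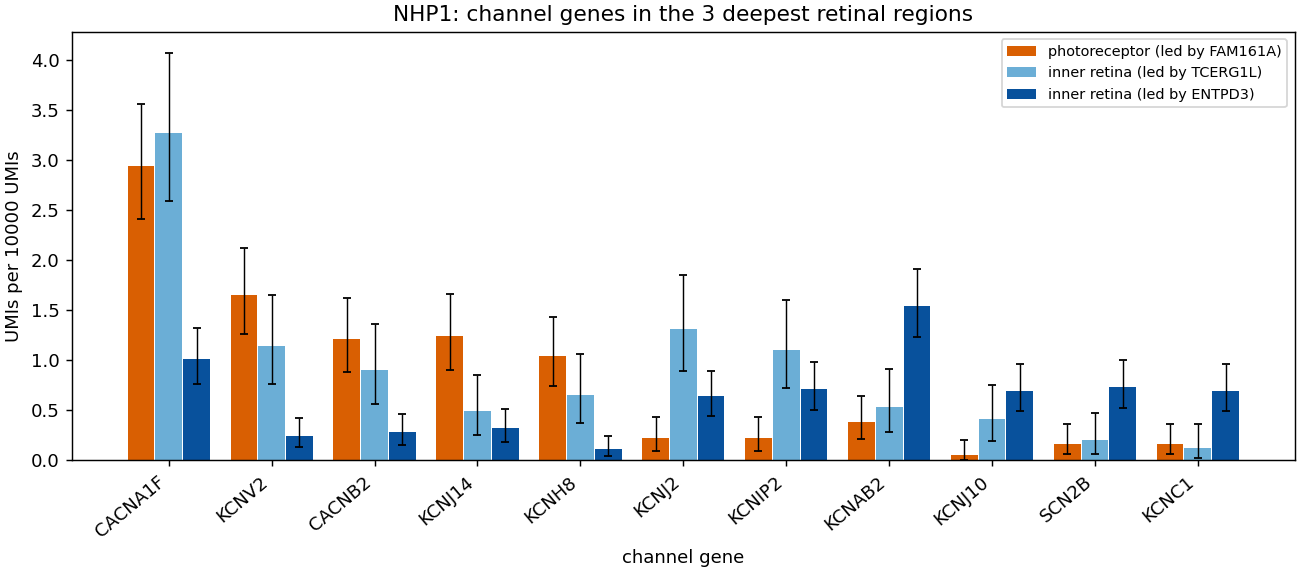
UMIs per 10000 UMIs (vertical axis) of named channel genes in the 3 deepest retinal regions of NHP1; bars are UMI sums over the spots of a region and error bars exact 95% Poisson intervals. CACNA1F was at 2.95, 3.28 and 1.02 from left to right. The highest value was in the middle region for KCNJ2 and KCNIP2 and in the right one for KCNAB2 and KCNC1. The middle region, led by TCERG1L, also carried photoreceptor markers.

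Neural retina, the photoreceptor and inner retina classes together, was set beside sclera, a collagen tissue with few neurons. In NHP2, 16 of 23 members (69.6%) were over 2-fold higher in neural retina, beside 33.2% of 8011 genes, and 1 (4.35%) was over 2-fold lower, beside 15.8%. In NHP1, 11 of 31 members (35.5%) were over 2-fold higher, beside 27.3% of 8947 genes, and 2 (6.45%) were lower, beside 12.3%. With genes at 0 in 1 class set to the level that 3 UMIs would give, 9 of the 31 members and 1510 of the 8947 genes were over 2-fold higher in NHP1, and 14 of the 23 members and 2373 of the 8011 genes in NHP2. The summed ratio was 1.20 (1.01–1.43) in NHP1 and 2.33 (1.90–2.87) in NHP2. The sections held several pieces of tissue, and the ratio was not stable over them, at 1.74 (1.29–2.38) in piece 1 and 0.881 (0.711–1.10) in piece 2 of NHP1, and at 0.758 (0.385–1.40) in piece 1 and 2.81 (2.16–3.72) in piece 2 of NHP2. In the sclera of NHP1, photoreceptor markers stood at 56.2 per 10000 in piece 1 and 147 in piece 2, and their part in the ratio was not tested. Piece 1 of NHP2 had only 14 channel UMIs in neural retina.

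Few members stood higher in sclera. KCNE4, an inhibitory auxiliary subunit gene, had 6 UMIs in the sclera of each section, levels of 0.587 and 0.379, and its ratio of neural retina to sclera was 0.180 (0.0639–0.578) and 0.129 (0.0208–0.603). CACNB1 had 4 sclera UMIs in NHP1 (0.391), a ratio of 0.125 (0.0296–0.601), and 1 in NHP2, and it overlaps another gene on its own strand, so its reads could belong to either. CACNB3 had 10 sclera UMIs in NHP2 (0.631), a ratio of 0.309 (0.122–0.799), and 3 in NHP1. SCN4B had 15 sclera UMIs in NHP1 (1.47), a ratio of 0.533 (0.307–0.988). In NHP2 it had 4, and the ratio of 1.55 (0.531–6.13) included 1. The 5 myelinating glia markers, genes that peripheral nerve would carry, stood at 0.782 per 10000 in the sclera of NHP1, with 8 UMIs from 3 of them, and at 3.53 in that of NHP2, with 56 UMIs from 4 of them. There the myelin gene MBP had 12 UMIs, and their part in the level of CACNB3 was not tested.

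Between the animals, the summed inner retina level differed by less than counting error, with a ratio of NHP2 to NHP1 of 1.02 (0.936–1.12). Of 29 members with 10 or more UMIs in the inner retina of both together, 3 (10.3%) were over 2-fold higher in NHP2, beside 5.23% of 8763 genes, and 1 (3.45%) was over 2-fold lower, beside 7.49%. The 3 were KCNH7, CACNB1 and KCNA4, and the intervals of the last 2 included 1. Intervals also lay off 1 for CACNB2 at 1.78 (1.09–2.90) and KCNJ2 at 0.511 (0.291–0.856). The inner retina class joined several regions in NHP1, which held CACNB2 and KCNJ2 at unlike levels, and was 1 region in NHP2. The makeup of the class thus differed together with the animal, and its part in these ratios cannot be told apart. The ratio was 0.920 (0.679–1.24) for CACNA1F and 1.07 (0.733–1.55) for KCNK1.

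KCNH7, another ether-a-go-go gene, stood apart. It had 2 UMIs in the inner retina of NHP1 (0.0242 per 10000) and 45 in that of NHP2 (1.05), a ratio of 43.5 (11.4–370). In the photoreceptor class it had 1 and 16 UMIs (0.0249 and 0.855). Along chromosome 12 of Mmul_10, KCNH7 (chr12:49443176-49916061, minus strand) is followed by GCA (chr12:49390387-49434907, plus strand), 8268 bases away, and by IFIH1 (chr12:49338577-49389753, minus strand), a viral RNA sensor gene induced by interferon. No feature of the count tables had the symbol IFIH1, but 9855 features had no symbol, so whether IFIH1 was counted is not known. GCA had 23 inner retina UMIs in NHP1 and 10 in NHP2, levels of 0.278 and 0.234. The interferon-induced genes MX1 and ISG15 had 12 and 10 inner retina UMIs in NHP1 (0.145 and 0.121) and 623 and 537 in NHP2 (14.6 and 12.5). Their part in the KCNH7 count was not tested, nor was it whether all reads counted as KCNH7 came from that gene rather than from its neighbours, so the ratio is one of counts under that symbol.

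**Figure D5:**
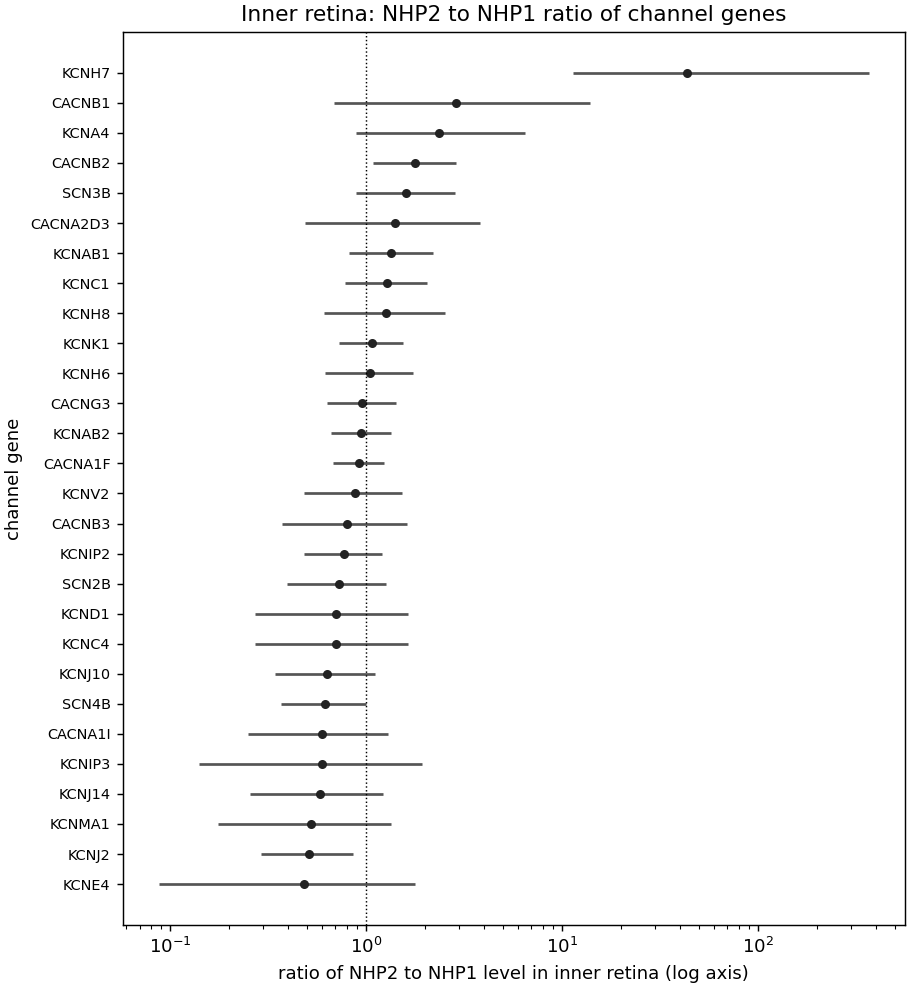
Ratio of the NHP2 to the NHP1 level in inner retina (log axis) for single channel genes with 10 or more UMIs there over both sections; points are ratios of UMI sums and lines exact 95% intervals. KCNH7 lies at 43.5, and of the others shown only those of CACNB2 and KCNJ2 exclude 1.

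Genes that work with these channels but are no members were counted between the same layers. Of 30 listed genes for cyclic nucleotide-gated and pacemaker channels, ion pumps and channel partners, 28 were in the reference. In NHP1, 3 of the 16 with 10 or more UMIs (18.8%) were over 2-fold higher in the photoreceptor class than in inner retina, beside 7.97% of all genes. Over 2-fold lower were 7 (43.8%), beside 16.2%. In NHP2, 2 of 12 (16.7%) were higher, beside 11.4% of all genes, and 6 (50%) were lower, beside 19.2%. CNGA1, the rod cyclic nucleotide-gated channel gene, had ratios of 4.93 (3.44–7.18) and 4.00 (1.02–18.6). HCN2, a pacemaker channel gene, had 0.277 (0.122–0.559) and 0.435 (0.109–1.29). AQP4, the Müller glia water channel gene and one of the inner nuclear layer markers, had 0.380 (0.245–0.572) and 0.254 (0.123–0.474).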

How the data were processed

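Visium 3′ libraries of 1 uninjected section from each of 2 animals were used. The count tables that the authors deposited give unnormalised UMIs for every spot and gene, made with Space Ranger 2.1.0 per the study's methods against Mmul_10 with the transgenes added. A spot's mark for tissue and its grid position came from the deposited position tables. Other deposited tables (spatial statistics per gene) were not used. The sample descriptions call the sections fresh frozen, while the protocol also mentions fixation.

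Counts were summed over tissue spots per 10000 UMIs. Exact 95% intervals were Poisson for sums and conditional binomial for ratios, and a count of 0 was read as up to 3 UMIs. With 1 section per animal no test was made, and called means past 2-fold with at least 10 UMIs over both classes. Depth was 1484784 UMIs in NHP1 and 805726 in NHP2. Spots were clustered per section without channel genes (Python 3.11.15, numpy 2.4.6, scipy 1.17.1, scanpy 1.11.5, leidenalg 0.10.2, matplotlib 3.10.9; counts scaled to 10000 UMIs, log1p, 2000 variable genes, 20 components, 15 neighbours, Leiden resolution 1, seed 0). A region was named for the class with the largest share of its markers at 3 or more UMIs and 1.5-fold over the rest of the section, with at least 3 of them. It was called mixed where its 10 leading genes held more markers of another class, so a named region can still carry some markers of a second class. A mixed region (33 spots, sclera with RPE and choroid) and an unnamed one (75 spots) of NHP2 were left out, while the mixed photoreceptor and RPE region of NHP2 was kept as its photoreceptor class. The joining of layers into 4 classes and the rule for mixed regions were set after the regions, and channel counts in an earlier grouping, had been seen. Members, marker lists and related genes were chosen with earlier results of these data known. Genes named were the 25 members with the most UMIs, textbook retinal channels, and members with a strong layer ratio. The genes in the maps and in the plot by region, the printed promoters, CACNA2D3, CACNB1, KCNIP3, KCNA4, KCNH7's neighbours, MX1, ISG15 and MBP were chosen after their values were seen. Some members are counted in the sums but not reported here by name or shown in the plots. Gene positions are from RefSeq for Mmul_10, where 36 of the 37 members with 10 or more UMIs were matched, 17 of them overlapping a gene on the other strand and 2 (CACNB1 and KCNQ1) one on the same strand. The ratio script was tested on simulated data. Alternatives were other totals, cluster resolutions, thresholds, spot rules and single tissue pieces.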

Additional observations from a re-analysis of the deposited data

Results flagged for a closer look

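Channel UMIs were present in spots outside the tissue, which no comparison uses. There were 691 such UMIs in NHP1, from 59 channel genes, at 13.2 per 10000 (12.2–14.2), and 108 in NHP2, from 30 channel genes, at 14.0 per 10000 (11.5–17.0). Spots off tissue held a median of 8 and 4 UMIs. Photoreceptor markers stood at 130 per 10000 off the tissue of NHP1, above the level in its sclera.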

How the results depend on the processing

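Of 117 values for groups of channel genes under an alternative, 92 kept their value within the interval or count range, 23 moved and 2 reversed. Of 712 single-gene values over 99 results, 677 kept it, 31 moved and 4 reversed, and a further 87 ratios had no number because a class had 0 UMIs. With totals that left out mitochondrial and the 50 most abundant genes, levels in NHP1 and NHP2 were 18.9 and 16.3 in tissue, 18.1 and 13.2 in the photoreceptor class, 21.1 and 20.8 in inner retina, and 16.8 and 8.54 in sclera. In the largest piece alone, tissue levels were 13.7 and 8.57. With spots classed by their highest marker score, the NHP1 ratio of neural retina to sclera was 1.45 and the NHP2 photoreceptor level 12.9. By piece, chosen after seeing the data, that ratio in NHP1 was 1.74 in piece 1 and reversed to 0.881 in piece 2, the ratio of photoreceptor to inner retina was 0.768 in piece 1 of NHP1, and in piece 1 of NHP2 neural retina to sclera reversed to 0.758. Farther than 3 spacings from tissue, the NHP2 level was 19.2. With 10 UMIs asked of each section, 23 genes were left. At 3-fold, 4 (NHP1) and 1 (NHP2) members were higher in the photoreceptor class and 6 higher in the neural retina of NHP1. With at least 20 UMIs, 4 were higher in the photoreceptor class of NHP1, 8 lower in that of NHP2, and 0 lower in the neural retina of NHP1. At a resolution of 0.5, 2 were lower in the neural retina of NHP2. For these counts under other settings no share over all genes is given, so they are not read as results about the members. In piece 1, photoreceptor to inner retina in NHP1 reversed for CACNA1F (0.947) and SCN3B (2.75), and neural retina to sclera in NHP2 for CACNB2 and KCNH7 (0 each). The cause was not tested, other than that pieces and higher minimums hold fewer UMIs. Leaving out a photoreceptor region led by RPE genes gave no value, since NHP1 had no such region and NHP2 no other one. No paired analysis was possible because each group has 1 section. Depth limits most the RPE and choroid class of NHP2, with 12 channel UMIs.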
